A study of Mus musculus with 4 samples.

Results

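The Hox genes considered here were 37 genes of the mouse HoxA, HoxB, HoxC and HoxD clusters whose symbols carry a paralogue number, chosen by gene symbol. Of these, 12 had an entry among the 17849 genes listed in the data. Antisense transcripts that carry a Hox gene's name were kept apart, and 1 of them, Hoxd3os1, had an entry. Lesional skin of the face was sampled in 4 libraries, all in 1 group: C57BL/6 mice at 28 days of age, with the genotype Nectin-cre(+);Ikk2FL/FL;Postn-/-. This is the FADS model of facial dermatitis, in which the kinase gene Ikk2 is floxed, on a background without the matrix protein periostin. The labels leave unsaid which cells the Cre acts in, the meaning of the sample codes, and whether each skin is from its own animal; libraries 1 and 2 share the first part of their code, as do libraries 3 and 4. No other genotype, healthy skin or other body site was measured, so levels are given with the spread over the 4 libraries, which may be technical.

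Hox genes encode homeodomain transcription factors that give cells their position along the body axis. Within a cluster they lie in the order in which they are used: low paralogue numbers act towards the head, high numbers towards the tail and the tips of the limbs, and genes with 1 number in several clusters are copies of each other. Skin fibroblasts of the adult trunk and limbs keep a Hox pattern of their site of origin. The facial dermis comes from cranial neural crest, most of which forms without Hox expression, and relies on other homeobox genes of the Dlx, Msx and Alx families.

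Expression was measured by CAGE, a method that reads short tags from RNA caps and thus marks where transcription starts, so that a level does not depend on transcript length and levels of different genes can be set side by side. Values are CPM, tag counts scaled to a common library total, and tags that begin close together form a cluster. Over all entries the 4 libraries held 18179860, 18823630, 17630119 and 17939565 tags, and 1 tag was worth 0.0531 to 0.0567 CPM. A cluster listed under several genes counts for each of them in these totals. With each cluster counted once, the totals were 17026618, 17691558, 16492915 and 16787072 tags. A gene counted as detected in a library with at least 3 tags, 0.159 to 0.170 CPM, which covers counting error only. All 6 symbols of the epidermal list, 11 of 11 fibroblast and 12 of 12 skeletal muscle symbols had tags in every library, with Krt10, a keratin of differentiating epidermis, at 2609 to 4347 CPM and Acta1, a muscle actin, at 631 to 1516 CPM. Secreted gland proteins were abundant in library 2, where 5 of them summed to 40700 CPM, and in library 4 at 8714 CPM, against 9.13 in library 1 and 0.113 in library 3.

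Transcription starts of leading Hox genes that lie in the 300-base windows of RefSeq around annotated starts are shown first (build GRCm38.p6, 250 bases before the start and 50 from it on, 5' to 3'). Capitals mark the bases that lie in a CAGE cluster of the same strand. Hoxd3 and Hoxa2 are the highest members of their clusters, Hoxd9 is the highest gene with a high paralogue number, and Hoxb3os, chosen after its values were seen, is the start of an antisense RNA that took more tags than any HoxB gene. The windows are chr2:74711743-74712042 (plus strand) for Hoxd3, chr2:74697513-74697812 (plus) for Hoxd9, chr6:52164782-52165081 (minus) for Hoxa2 and chr11:96353345-96353644 (minus) for Hoxb3os.
Hoxd3: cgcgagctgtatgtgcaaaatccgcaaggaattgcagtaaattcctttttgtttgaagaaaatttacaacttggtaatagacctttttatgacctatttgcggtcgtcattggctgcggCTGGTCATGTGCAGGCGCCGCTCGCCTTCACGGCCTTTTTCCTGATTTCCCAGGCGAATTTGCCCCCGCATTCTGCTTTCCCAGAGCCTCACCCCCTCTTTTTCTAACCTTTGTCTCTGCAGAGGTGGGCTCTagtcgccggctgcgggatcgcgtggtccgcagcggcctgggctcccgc
Hoxd9: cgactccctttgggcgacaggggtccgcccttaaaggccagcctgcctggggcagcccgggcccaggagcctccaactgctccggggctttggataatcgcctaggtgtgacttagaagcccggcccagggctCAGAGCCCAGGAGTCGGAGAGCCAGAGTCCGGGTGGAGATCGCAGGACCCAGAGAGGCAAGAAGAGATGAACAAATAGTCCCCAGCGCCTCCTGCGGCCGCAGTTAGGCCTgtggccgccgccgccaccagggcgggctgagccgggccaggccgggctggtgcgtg
Hoxa2: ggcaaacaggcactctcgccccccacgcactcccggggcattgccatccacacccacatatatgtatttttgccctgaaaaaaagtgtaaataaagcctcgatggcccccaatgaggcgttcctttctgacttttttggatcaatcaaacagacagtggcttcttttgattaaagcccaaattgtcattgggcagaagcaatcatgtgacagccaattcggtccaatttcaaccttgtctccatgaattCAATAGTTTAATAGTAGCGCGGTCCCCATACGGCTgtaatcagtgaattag
Hoxb3os: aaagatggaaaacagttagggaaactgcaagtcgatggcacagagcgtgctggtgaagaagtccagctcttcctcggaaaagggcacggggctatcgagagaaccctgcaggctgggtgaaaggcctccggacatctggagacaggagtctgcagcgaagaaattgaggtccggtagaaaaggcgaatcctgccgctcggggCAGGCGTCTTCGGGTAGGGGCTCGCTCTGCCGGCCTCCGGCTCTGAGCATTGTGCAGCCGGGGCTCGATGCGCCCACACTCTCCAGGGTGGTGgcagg
The cluster in the Hoxd3 window covers 133 bases, that in the Hoxb3os window 93, while the Hoxa2 cluster covers 35 bases and begins at most 1 base before the annotated start. RefSeq windows were at hand for 22 of the 37 genes, 24 windows in all, and 4 of the windows held a CAGE cluster: those of Hoxa2, Hoxd3, Hoxd9 and Hoxd10. The median ratio of observed to expected CpG was 0.626 over these 24 windows and 0.384 over all 32851 windows. The TATA motif TATAAA, searched on both strands, was present in 4 of 24 Hox windows, 16.7%, and in 13.62% of all windows; these windows belong to Hoxa10, Hoxb8, Hoxd4 and Hoxd13, and none of them held a CAGE cluster. The motif TGATTNAT, a letter pattern bound by Pbx and Hox proteins together, was present in 2 of 24 Hox windows (Hoxa2 and 1 of the windows of Hoxd11), 8.33%, and in 3.22% of all windows. A match of letters is a description and not a site.

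Few Hox genes had an entry, and those that did were low. Entries were listed for 12 of 37, whereas 66.7% of the 21951 protein-coding genes of GENCODE M21 had one. HoxD had the most, 5 of 9 (Hoxd3, Hoxd4, Hoxd8, Hoxd9 and Hoxd10). HoxA had 3 of the 10 considered (Hoxa2, Hoxa5 and Hoxa7), HoxC 3 of the 8 considered (Hoxc4, Hoxc5 and Hoxc6) and HoxB 1 of 10 (Hoxb2). No entry was listed for Hoxa3, Hoxa4, Hoxa6, Hoxa9, Hoxa10, Hoxa11 and Hoxa13, for Hoxb1, Hoxb3 to Hoxb9 and Hoxb13, for Hoxc8 to Hoxc12, or for Hoxd1, Hoxd11, Hoxd12 and Hoxd13. The data list only clusters that the authors formed, by a step not given in the sources used here, so a gene without an entry was not measured as 0 and has no upper limit.

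**Figure D1:**
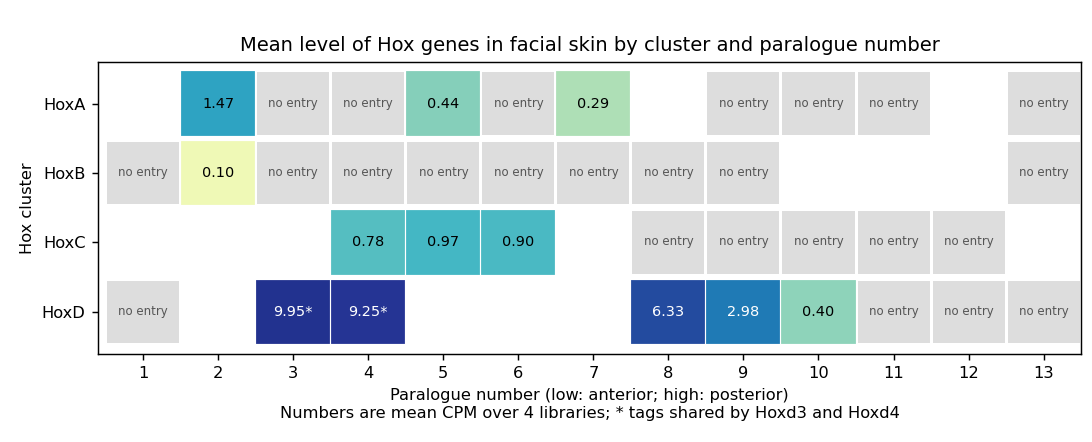
Mean CPM over 4 libraries of each Hox gene, with the 4 clusters as rows and the paralogue numbers as columns; grey cells are genes with no entry, and white cells hold no gene considered here. The highest values lie in HoxD at paralogues 3, 4, 8 and 9, and the tags of Hoxd3 and Hoxd4 (starred) are largely the same tags.

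By paralogue number, entries ran from 2 to 10. Paralogues 2 to 4 had 5 of 9 genes with an entry, paralogues 5 to 8 had 5 of 11, and paralogues 9 and 10 had 1 of 4 and 1 of 3. None of the 2 genes considered of paralogue 1 and none of the 8 genes considered of paralogues 11 to 13 had one. Every tag of Hoxd4 came from a cluster that Hoxd3 is given too, so the pair is treated below as 1 item under the name Hoxd3, which leaves 11. Of these 11, 10 had at least 3 tags in every library, against 93.2% of the 17037 genes analysed. Their median level was 0.900 CPM, against 17.12 CPM over all genes analysed, and their ranks by level ran from 10332 to 16636.

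The 11 genes together summed to 19.6, 16.8, 32.2 and 29.8 CPM in libraries 1 to 4, 24.6 ± 7.51 (SD, n = 4), from 1776 tags in all. This was 0.00245% of the tags over all entries, a total that counts shared clusters more than once. Clusters without a gene name are not in these sums, although some lie inside a Hox gene on its own strand. HoxD made up 79.3% ± 2.84 of the sum, HoxC 11.3% ± 2.29, HoxA 9.04% ± 1.77 and HoxB 0.368% ± 0.264 (SD, n = 4 each). In CPM, HoxD stood at 19.7 ± 6.60, HoxC at 2.65 ± 0.361, HoxA at 2.20 ± 0.649 and HoxB at 0.0977 ± 0.0702. The HoxD sum was above those of the other clusters in 4 of 4 libraries, between 13.2 and 26.7 CPM. HoxC exceeded HoxA in 4 of 4 libraries, although their ranges, 2.31 to 3.07 CPM for HoxC and 1.27 to 2.73 CPM for HoxA, overlap. With shared clusters left out (those given to a second gene too), HoxD stood at 10.4 CPM and HoxC at 1.68 CPM, the HoxC value then below that of HoxA, and with the strongest cluster of each gene alone HoxD stood at 12.9 CPM.

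Summed by position along the axis, paralogues 2 to 4 stood at 12.3 ± 4.92 CPM, paralogues 5 to 8 at 8.93 ± 1.69 and paralogues 9 and 10 at 3.38 ± 0.986 (SD, n = 4 each). Paralogue 3 alone gave 39.5% ± 4.54 of the sum, all of it from the Hoxd3 item, which holds the tags of Hoxd4 too. Paralogue 8 gave 26.02% ± 1.64, all from Hoxd8. Paralogues 2 and 5 had entries in 2 clusters each and still reached only 6.21% ± 1.13 and 6.33% ± 2.51.

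Hoxd3, a gene of the hindbrain and neck region in the embryo, was the highest at 6.82, 6.27, 14.5 and 12.2 CPM, 9.95 ± 4.06 (SD, n = 4). Libraries 3 and 4 lay above libraries 1 and 2 without overlap. Its most used cluster, at chr2:74711862-74711994 on the plus strand, held 57.7% of its tags and spans the annotated start of Hoxd3-203 in the 5' untranslated region. The same cluster spans an annotated start of Hoxd4-203, a transcript that begins within 2 bp of it, and the deposited data list it under both genes. It held 70, 62, 164 and 118 tags. Over its 5 clusters Hoxd4 stood at 9.25 ± 4.02 CPM, all of it shared. No cluster lay in the RefSeq window of Hoxd4, whose start is 9.83 kb further on. A further cluster, listed under Hoxd3 alone and 33.8 kb from the first start, spans another annotated start of the gene and held 10, 12, 8 and 21 tags, 0.703 ± 0.321 CPM. That start was highest in library 4 and lowest in library 3, and so did not follow the order of the shared clusters.

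**Figure D2:**
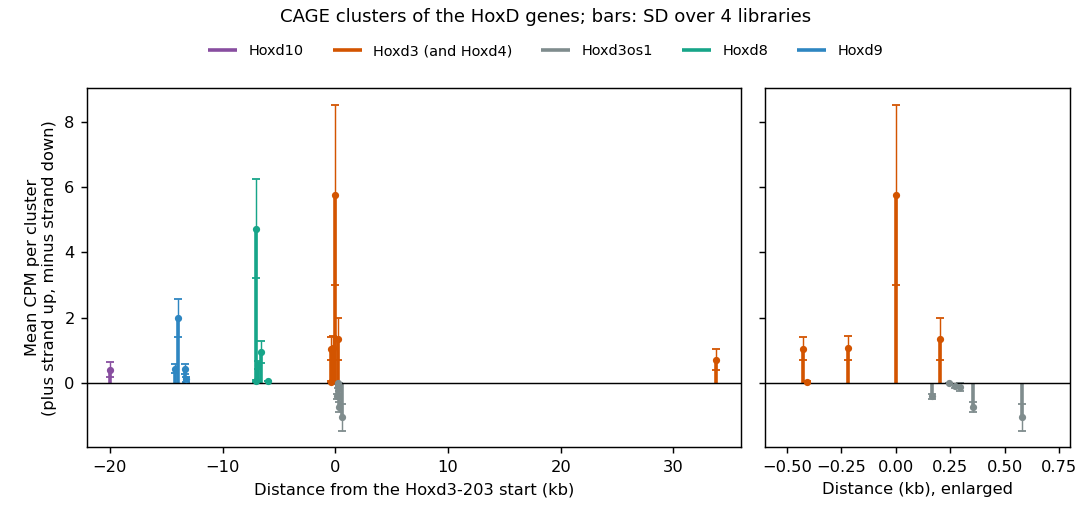
Mean CPM of each CAGE cluster of the HoxD genes against its distance in kb from the start of Hoxd3-203, with plus-strand clusters up and minus-strand clusters down; error bars are the SD over 4 libraries, and the right panel enlarges the region around that start. The tallest cluster of Hoxd3 reaches 5.76 CPM and that of Hoxd8 4.72 CPM, and the clusters of the antisense RNA Hoxd3os1 lie opposite the Hoxd3 start.

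Hoxd8, a gene of the trunk in the embryo, followed at 5.17, 4.67, 7.66 and 7.80 CPM, 6.33 ± 1.64 (SD, n = 4), again with libraries 3 and 4 above libraries 1 and 2. Of its tags, 74.6% lay in the cluster at chr2:74704864-74704936, which spans an annotated start of Hoxd8 and lies 249 bp downstream of the start that RefSeq gives, outside that window. Hoxd9 stood at 2.70, 2.07, 3.80 and 3.34 CPM, 2.98 ± 0.755. Most of its tags, 67.0%, came from a cluster in the 5' untranslated region at chr2:74697948-74698032, 221 bp downstream of the annotated start, and the cluster shown in capitals above held 5, 10, 7 and 10 tags. Hoxd10 was near the limit of the depth, with 5, 3, 12 and 9 tags, 0.404 ± 0.233 CPM, in 1 cluster that spans its annotated start.

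By named clusters, Hoxa2 was the highest member outside HoxD. An unnamed cluster inside Hoxb2, on that gene's own strand, averaged 2.86 CPM and is not counted in this ranking. Hoxa2 is the Hox gene used furthest towards the head in the embryo, where it sets the identity of the second pharyngeal arch. Its levels were 1.16, 0.797, 1.87 and 2.06 CPM, 1.47 ± 0.596 (SD, n = 4), from 21, 15, 33 and 37 tags in a single cluster at chr6:52164798-52164832 on the minus strand. Libraries 3 and 4 were above libraries 1 and 2. Hoxa5, which patterns the neck and lung region, had 12, 5, 8 and 7 tags, 0.442 ± 0.165 CPM, and Hoxa7 had 8, 4, 4 and 5 tags, 0.290 ± 0.104 CPM. Both were highest in library 1, with no order that separates libraries 3 and 4 from the others.

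Hoxb2, the copy of Hoxa2 in HoxB, had 2, 0, 2 and 3 tags in its 1 named cluster and was the one member below 3 tags in a library. Over the 4 libraries its 7 tags give 0.0965 CPM with an exact 95% Poisson interval of 0.0388 to 0.199. Its cluster lay 356 bp inside the gene, in an exon.

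Among the HoxC genes, Hoxc5 stood at 0.935, 1.22, 0.794 and 0.948 CPM, Hoxc6 at 0.825, 0.637, 1.02 and 1.11 CPM and Hoxc4 at 0.550, 0.531, 1.02 and 1.003 CPM. Hoxc4 and Hoxc6 had libraries 3 and 4 above libraries 1 and 2, and Hoxc5 did not. Hoxc5's 2 clusters are also listed under the microRNA gene Mir615, lie in a coding exon (an intron of other transcripts), and begin at least 336 bp from the nearest annotated start, so its tags are no clear measure of its promoter. The cluster of Hoxc4, at chr15:103034618-103034665, lay in the 5' untranslated region 223 bp downstream of the annotated start. Hoxc6 had most of its tags, 49 of 65, in a cluster that begins 52 bp downstream of an annotated start.

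In order of level by named clusters, Hoxd3 exceeded Hoxd8 in 4 of 4 libraries although their ranges overlap. Hoxd8 exceeded Hoxd9, and Hoxd9 exceeded Hoxa2, with no overlap of ranges. Hoxa2, Hoxc5, Hoxc6 and Hoxc4 formed a run of neighbours with overlapping ranges, as did Hoxc4, Hoxa5, Hoxd10 and Hoxa7. Hoxb2, by its named cluster alone, lay below Hoxa7 in 4 of 4 libraries. With 4 libraries an exact sign-flip test cannot go below p = 0.125, so none was made.

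**Figure D3:**
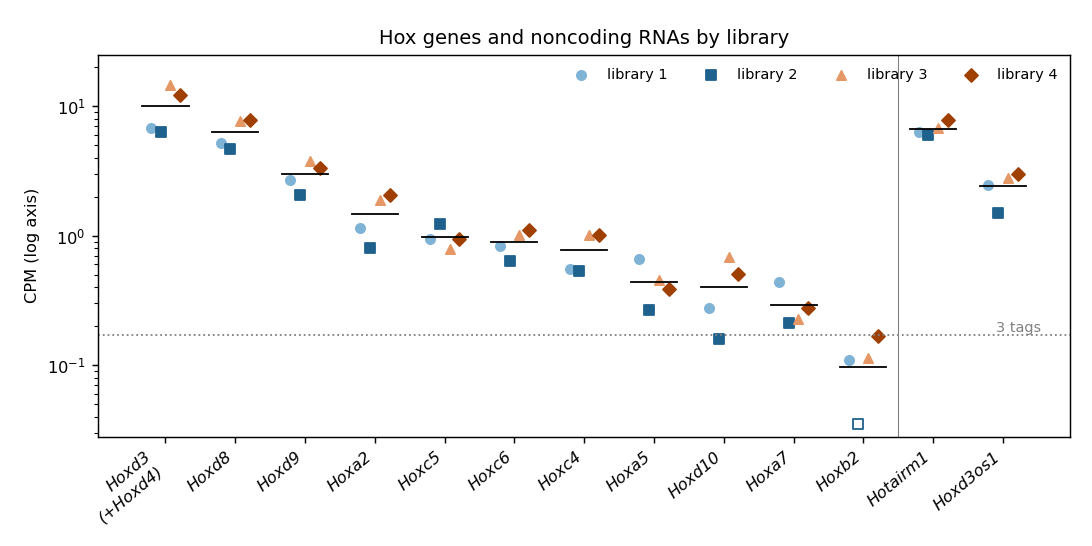
CPM of each Hox gene and of 2 noncoding RNAs in each of the 4 libraries on a log axis; horizontal lines are means, the dotted line is the level of 3 tags in the smallest library, and the open square marks Hoxb2 in library 2, which is at 0 and drawn below the scale. For Hoxd3, Hoxd8, Hoxd9, Hoxa2, Hoxc6, Hoxc4 and Hoxd10 libraries 3 and 4 lie above libraries 1 and 2. The same holds for the noncoding RNAs Hotairm1 and Hoxd3os1, and for Hoxb2, which has at most 3 tags in a library.

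Of the tags of the 11 genes, 94.1% were no further than 500 bp from a known start of their gene, against 95.9% over all named entries. Of the 25 Hox clusters, 6 spanned an annotated start, against 17259 of 49029 over all named entries. Clusters that overlap coding exons held 6.81% of the Hox tags and were 6 of 25. The share over all named entries was not counted for coding exons, so that count is a description only.

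Of the noncoding RNAs of the Hox loci, Hotairm1 and Hoxd3os1 were at levels found among the higher Hox genes, and Hoxaas3 was near the limit of the depth. Hoxd3os1, transcribed against Hoxd3, had 2.48, 1.49, 2.78 and 3.01 CPM, 2.44 ± 0.670 (SD, n = 4), below Hoxd3 in 4 of 4 libraries. Tags carry a strand, so the pair is counted apart. Its 6 clusters, 1 of them with no tag, lie at chr2:74712078-74712542 on the minus strand, within 1 kb of the Hoxd3 start, and none lay in its RefSeq window. Hoxaas3, an antisense RNA of HoxA whose symbol has no paralogue number next to the cluster letter, had 2, 1, 0 and 2 tags in its named cluster.

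Hotairm1, an antisense RNA of HoxA, stood at 6.27, 5.95, 6.81 and 7.75 CPM, 6.69 ± 0.787 (SD, n = 4). The 3 HoxA genes with an entry summed to 2.26, 1.27, 2.55 and 2.73 CPM, less than Hotairm1 alone in 4 of 4 libraries. Its cluster is also listed under the predicted gene Gm27867. Halr1, a noncoding RNA beside the HoxA cluster, stood at 1.93 ± 0.952 CPM. Of 12 symbols of noncoding RNAs of the Hox loci, 9 had no entry: Hotair, Hottip, Haglr, Haglros, Mir10a, Mir10b, Mir196a-1, Mir196a-2 and Mir196b.

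Clusters with no gene name inside the loci were most abundant in HoxB. The 7 of HoxB summed to 6.38, 7.33, 6.41 and 9.31 CPM, far above the named cluster of Hoxb2, the only HoxB gene with an entry. The highest, at chr11:96353350-96353442 on the minus strand, had 3.19, 3.61, 3.01 and 3.90 CPM, 3.43 ± 0.405 (SD, n = 4), and spans the RefSeq start of Hoxb3os shown above; it lies opposite a coding exon of Hoxb2. Another, at chr11:96352716-96352821 on the plus strand, had 2.48, 2.97, 2.04 and 3.96 CPM. It lies inside Hoxb2 on that gene's own strand, in an intron or a noncoding exon depending on the transcript. Smaller clusters at chr11:96352891-96352895 and chr11:96352948-96352950 lie there too, on the same strand, at means of 0.221 and 0.109 CPM. The latter overlaps a coding exon. The levels given for Hoxb2 and HoxB leave all of these tags out. HoxA between Hoxa2 and Hoxa13 held 5 clusters without a name, which summed to 2.44 to 4.07 CPM. Their highest, at chr6:52191956-52192009 on the plus strand, averaged 1.82 ± 0.394 CPM. It lay in an intron of Hoxaas3 on that gene's strand, 203 bp from the start of Hoxa4 on the other strand. Clusters at chr6:52172607-52172608, chr6:52172675-52172678 and chr6:52175840-52175852 lay inside Hoxa3 on its strand, although Hoxa3 had no entry. They fell in a coding exon, the 5' untranslated region and an intron, at 0.218, 0.152 and 0.429 CPM. HoxD held 1, of 0.934 ± 0.136 CPM. HoxC between Hoxc12 and Hoxc4 held none.

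Single libraries differed in the Hox signal. Of the 10 genes with at least 3 tags in every library, 7 had libraries 3 and 4 both above libraries 1 and 2, as did 44.9% of the 15876 genes of that kind. With TMM scaling, which evens out the gland transcripts of library 2, the count was still 7 of 10, against 26.3% of genes. A highest value in library 3 or 4 was found for 7 of 10, against 70.5% of genes, and a lowest value in library 2 for 9 of 10, against 49.8%. Libraries 3 and 4 together stood 1.70-fold above libraries 1 and 2 for the sum of all Hox genes, 1.80-fold for HoxD, 1.497-fold for HoxA and 1.26-fold for HoxC. By paralogue the ratio was 2.04 for paralogue 3 and 1.57 for paralogue 8, and it ran from 2.72 for paralogue 10, a gene of few tags, down to 0.839 for paralogue 5 and 0.775 for paralogue 7. The labels name no difference between these pairs of libraries beyond the first part of their code, so these ratios are descriptions.

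A test of spread asked which genes vary between libraries more than genes of their level do (limma on log2(CPM + 1), genes of at least 1 CPM on average, Benjamini-Hochberg adjustment over all genes tested). It called 0 of the 4 Hox genes tested, Hoxd3, Hoxd8, Hoxd9 and Hoxa2, against 0.380% of all 14732 genes; edgeR on recovered tags also called 0 of 4. At an unadjusted p under 0.05 limma found 1 of 4, Hoxd3 (limma adjusted p = 0.723, log2 range 0.95), against 6.27% of all genes. On this log scale the ranges of low genes are understated.

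Against counting error alone, a Poisson chi-square test of the recovered tags, which compares these libraries and not conditions, passed for 4 of the 11 genes at an adjusted p under 0.05, against 51.0% of all genes with a tag. They were Hoxd3 (adjusted p = 2.34e-18), Hoxd8 (0.000141), Hoxa2 (0.0098) and Hoxd9 (0.0304), the genes with the most tags. The other 7 had adjusted p from 0.104 for Hoxd10 to 0.674 for Hoxc5, so a difference between libraries was not detectable at their depth.

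Levels of other cell types moved between the same libraries. All 11 fibroblast genes had libraries 3 and 4 above libraries 1 and 2, and their sum, mostly Col1a1 and Col3a1, was 6474 and 5716 CPM in libraries 3 and 4, against 3851 and 3424 CPM in libraries 1 and 2. By CPM, 44.9% of all genes with at least 3 tags in every library had this order, and 26.3% with TMM scaling. By CPM the same order held for 5 of 5 endothelial, 11 of 12 muscle, 9 of 12 leukocyte and 4 of 6 epidermal genes. Their sums ran from 60.3 to 61.0 CPM in libraries 3 and 4 and from 41.7 to 42.2 CPM in libraries 1 and 2 for endothelium, from 4247 to 6380 and from 2546 to 3467 CPM for muscle, from 175 to 189 and from 155 to 174 CPM for leukocytes, and from 9293 to 9767 and from 6293 to 7400 CPM for epidermis. Hair shaft and root sheath genes had the reverse order in 15 of 15, with sums of 5596 and 6910 CPM in libraries 3 and 4, against 13916 and 12738 CPM in libraries 1 and 2. The test of spread called 4 of 15 hair genes with limma and 0 with edgeR, and 0 of 11 fibroblast, 0 of 12 muscle, 0 of 6 epidermal, 0 of 12 leukocyte and 0 of 5 endothelial genes with either tool. At an unadjusted p under 0.05 limma found 14 hair, 6 fibroblast, 12 muscle and 1 leukocyte genes, and 0 epidermal and 0 endothelial ones. Of the 5 gland genes both tools called 5. No marker with an entry was at 0 in all libraries, and the hair keratin Krt85 had no entry. Their part in the Hox differences was not tested, and in bulk skin more cells of a type and more RNA per cell cannot be told apart.

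Set against the fibroblast list, whose sum is mostly Col1a1 and Col3a1, the Hox sum was nearly even. It was 5.10, 4.92, 4.97 and 5.22 Hox CPM per 1000 CPM of fibroblast genes in libraries 1 to 4. This ratio was chosen after the values were seen, mostly reflects these collagen genes, and was not taken against single fibroblast genes. Per 1000 CPM of muscle genes the Hox sum was 5.66, 6.62, 7.57 and 4.67. Per 1000 CPM of epidermal genes it was 2.65, 2.68, 3.29 and 3.21, and per 1000 CPM of hair genes 1.41, 1.32, 5.75 and 4.32. Against the much lower endothelial list it was 471, 399, 527 and 495, and against the leukocyte list 113, 108, 170 and 171. Libraries 3 and 4 were both above libraries 1 and 2 on the epidermal, hair, endothelial and leukocyte scales. They were not on the fibroblast scale, where library 1 lay above library 3, nor on the muscle scale, where library 4 was lowest.

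**Figure D4:**
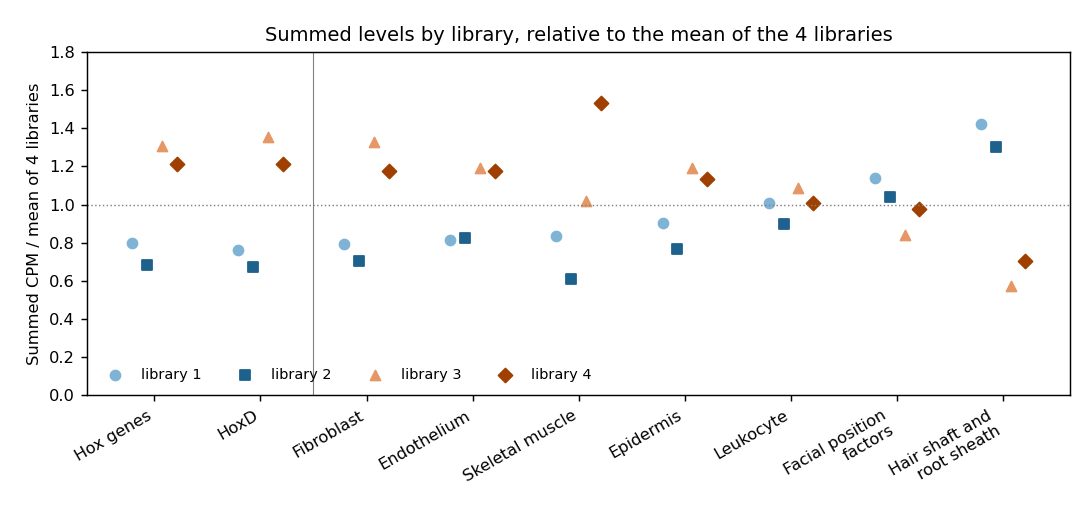
Summed CPM of the Hox genes, of HoxD and of 7 gene lists in each library, divided by the mean of the 4 libraries (dotted line at 1). The Hox sum, at 0.798, 0.684, 1.31 and 1.21 in libraries 1 to 4, and the fibroblast sum, at 0.791, 0.704, 1.33 and 1.17, take nearly the same values. The fibroblast sum is mostly Col1a1 and Col3a1. The sums of the hair list and, by less, of the facial position factors, which Dlx3 leads, run the other way. By gene, 8 of 25 facial factors had libraries 3 and 4 above libraries 1 and 2, and 3 had the reverse.

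Genes for proteins that act with Hox factors were above most Hox genes in level. All 8 TALE genes considered, whose products bind DNA together with Hox proteins, had an entry, and 3 exceeded the level of Hoxd3: Pbx2 at 21.8 ± 3.16 CPM, Pknox1 at 16.995 ± 1.60 and Meis1 at 13.1 ± 2.74 (SD, n = 4 each). Pbx3 stood at 9.22 ± 1.60 CPM. Polycomb genes, whose complexes keep Hox loci silent, were listed for 17 of 17 symbols with a median of 36.3 CPM, led by Rbbp7 at 239 ± 14.5, Jarid2 at 116 ± 5.88 and Rbbp4 at 91.4 ± 8.48 CPM; the histone methyltransferase gene Ezh2 stood at 51.0 ± 5.78 CPM. Genes of the opposing trithorax group and H3K27 demethylases, 9 of 9 listed, had a median of 35.3 CPM, with Ash2l at 101 ± 2.26 CPM. The test of spread called 0 of 8 TALE, 0 of 17 Polycomb and 0 of 9 trithorax genes with limma, 0 at an unadjusted p under 0.05, and 0 with edgeR.

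Retinoic acid, a regulator of Hox genes with low paralogue numbers in the embryo, had 13 of 15 pathway genes listed, with Crabp2, a carrier protein, at 291 ± 67.7, Aldh1a3, a synthesis enzyme, at 156 ± 15.4 and the receptor gene Rarg at 113 ± 11.97 CPM. Rarb, a receptor gene that retinoic acid itself induces, stood at 0.444 ± 0.158 CPM. Limma called 0 of 11 tested, with 2 at an unadjusted p under 0.05, and edgeR called 0.

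Homeobox and other factors of the face spanned a wide range, with a median of 4.52 CPM over the 25 of 28 symbols that had an entry. Their sum was 813 and 947 CPM in libraries 3 and 4, against 1103 and 1007 CPM in libraries 1 and 2. For the sum, this is the reverse of the Hox order, and Dlx3, at a mean of 451 CPM, weighs most in it. By gene, 8 of the 25 had libraries 3 and 4 both above libraries 1 and 2, and 3 had the reverse. Over all genes with at least 3 tags in every library, 44.9% had libraries 3 and 4 both above. Of the 25, 11 exceeded Hoxd3, led by Dlx3 at 451 ± 104, Tfap2a at 196 ± 8.97, Msx2 at 108 ± 28.3 and Msx1 at 54.0 ± 9.72 CPM; Dlx3 and Msx2 are also genes of the hair follicle. Alx1 and Alx4, genes of the embryonic face, were at 0.0820 ± 0.0693 and 0.345 ± 0.146 CPM, and Dlx6, Barx1 and Otx2 had no entry. Of 14 symbols listed as factors of the trunk and limbs, which need not be limited to those sites, 6 had an entry. Tbx15 was highest among them at 41.7 ± 10.9 CPM, and its level here is not a mark of trunk or limb position. Tbx4, Tbx5, Hand1, Cdx1, Cdx2, Cdx4, Nkx3-2 and Uncx had no entry. The genes that flank the Hox loci were not uniformly low: Mtx2, beside HoxD, stood at 112 ± 3.81 CPM, and Cbx5, near HoxC, at 91.9 ± 7.71 CPM, whereas Evx1 and Evx2, homeobox genes at the ends of HoxA and HoxD, had no entry. Limma called 0 of 18 facial factors tested, 0 of 5 trunk and limb factors, 0 of 7 flanking genes and 0 of 2 noncoding RNAs of the loci, with 4, 1, 0 and 0 at an unadjusted p under 0.05, and edgeR called 0 in each.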

How the data were processed

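Total RNA from 4 skin samples was made into CAGE libraries with a commercial kit, per the labels' protocols. BWA and HISAT2 are named, without versions, in the submitters' processing notes, as is the mm9 build. The cluster positions are those of GRCm38: 99.953% of named entries lay within 1000 bp of their gene in GENCODE M21, and 17828 of 17849 gene identifiers were found there. Starts in the data count from 0 and were raised by 1: the base 1 inside the 5' edge was then a purine in 76.5% of plus-strand and 75.8% of minus-strand clusters of at least 200 tags that lie in RefSeq windows. The edge base itself was a purine in 32.5% and 30.3% of them, so the first capital letter of a shown sequence need not be a transcription start. The authors deposited CPM for 69391 entries, of which 1072 held no tag. All deposited CPM values (100%) were whole multiples of 1 tag, within 0.02 tags, so tags were recovered. Tags were summed per gene; 779 genes, Hoxd4 among them, shared 90% or more of their tags with a gene counted in their place and were set aside and 33 had no tag, leaving 17037. Intervals and floors cover counting error only.

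The test of spread used limma 3.58.1 on log2(CPM + 1) with TMM scaling (edgeR 4.0.16; factors 0.988, 0.931, 1.04 and 1.04), a robust prior trended on level, an upper-tail (one-sided) F test and p-values adjusted by Benjamini-Hochberg. It takes the libraries as independent, which the shared sample codes leave unsure, and was tested on simulated data with changed genes at levels above those of the Hox genes. DESeq2 1.42.0 gave alternative size factors. Members, lists and tests were chosen with earlier results of these data known. By the rule for names, every Hox gene considered is named, with up to 5 of the highest genes of each list; others were chosen after their values were seen. Promoters were shown for the highest gene of each cluster and further genes among the 8 highest where a RefSeq window held a CAGE cluster. Some genes of the Hox clusters and of the lists are not reported here.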

Additional observations from a re-analysis of the deposited data

How the results depend on the processing

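The sums of the Hox clusters kept their level within 1 SD with totals of distinct clusters, TMM scaling and DESeq2 size factors. Where clusters also listed under another gene were left out, which removes Hoxd4 and most of Hoxd3 and all of Hoxc5, the sum fell to 14.4 CPM for all Hox genes, to 10.4 for HoxD and to 1.68 for HoxC, and 9 genes were detected in every library. Counting for each gene its strongest cluster only, HoxD stood at 12.9 CPM. Leaving out 1 library gave 22.1 to 27.2 CPM for all Hox genes, 17.3 to 21.8 for HoxD, 2.03 to 2.51 for HoxA, 2.51 to 2.76 for HoxC and 0.0745 to 0.130 for HoxB, and 10 genes detected each time. A floor of 10 tags left 7 detected and a floor of 1 tag 10.

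The test of spread called 56 of all genes. It called 30 with a pseudocount of 0.1 CPM, 16 with a mean of at least 5 CPM, 104 without scaling, 34 with DESeq2 size factors, 35 with edgeR on recovered tags and 8626 with the Poisson chi-square, which asks about counting error only. Leaving out 1 library gave 10 (without library 4) to 111 (without library 3). The Hox genes called were 0 of 4 in the main setting, 0 in all but 1 of the alternatives, leave-one-out included (0 to 0), and 4 with the Poisson chi-square. Of single genes, Hoxd3, Hoxd9 and Hoxc6 moved by more than 1 SD with the most used cluster alone, and the other 8 did not. Genes of 7 to 32 tags in all (Hoxb2, Hoxa7, Hoxd10 and Hoxa5) are limited by depth. No paired analysis was possible because all libraries belong to 1 group. Averaging libraries 1 and 2, and 3 and 4, whose codes begin alike, leaves 2 values; this kept the means and gave an SD of 9.02 CPM for all Hox genes and 7.91 for HoxD, against 7.51 and 6.60 over 4 libraries.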
